A study of Mus musculus with 9 samples.

Results

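Chromatin accessibility differed at 150 regions between C2C12 myotubes given 10 mM ammonium acetate for 24 h and untreated myotubes. The account here covers all of these regions and every gene that lies at them. They are all the regions, counted once each, in the authors' deposited table for 24 h against untreated, which lists regions with an adjusted p below 0.05. They make up 0.103% of the 146047 regions tested, a total recovered from the adjusted p and its rank, and 150 of the 1832 regions listed in any of the study's 3 tables. The 24 h group is 3 libraries of differentiated myotubes given 10 mM ammonium acetate for 24 h, and the untreated group is 3 libraries of myotubes given none. Myotubes of both groups came from C2C12, a mouse myoblast line, after culture to near confluence in serum and a switch to low horse serum, in which the cells fuse. A further 3 libraries, given 10 mM for 3 h, are described here through values of the same regions in the other tables. The sources do not say whether the authors fitted all groups together. The 3 h libraries may therefore also have entered the test that chose the 150 regions. No group received acetate without ammonium, and no time is given for the untreated cultures, so ammonium, acetate and time in culture cannot be told apart. The study asked how myotubes respond to excess ammonia. The labels call the libraries of a group biological replicates.

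ATAC-seq uses a transposase that inserts adapters into DNA not wrapped tightly in nucleosomes, so reads pile up at promoters, enhancers and other open sites. A change in accessibility at a region is not a measure of the nearby gene's transcription, and a region inside or beside a gene need not act on that gene. Skeletal muscle takes up ammonia when the liver fails to clear it, converts it to glutamine, and in liver disease loses protein and mass. In cultured myotubes ammonia is known to lower mTORC1 signalling and to raise the expression of myostatin, a secreted factor that limits muscle growth. The tables hold no values per library. The depth of each library is therefore unknown here, no test across libraries could be added, and replicate spread is carried solely by the edgeR test of the authors. The p values that chose the 150 regions are given as a description and support nothing further. The standard error (SE) given beside a log2 fold change is approximate, the fold change divided by the square root of the deposited F statistic.

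Sequences are shown for 4 promoters. Of the 32851 RefSeq promoters searched, 1 is overlapped by a region, here whole. The others belong to 3 genes with known roles in muscle that have a region beside the promoter or past the gene's 3′ end. The set searched lacks some genes at regions, among them Rtp4 and Csnk1d. Regions 850 bp from Arhgap22 and 883 bp from Rtp4 are in the annotation's promoter class, but these promoters are not shown. All 4 were chosen after the values were seen. Each runs 5′ to 3′ from 250 bases before to 50 after a RefSeq gene start on GRCm38.p6, the assembly behind mm10, and lower case marks bases outside the motifs found. Capitals mark the GC box GGGCGG, the CCAAT box, the E-box CAGCTG bound by myogenic factors, and the MEF2 motif, each on either strand and with no overlaps among the matches.
Gm34538, chr9:37053708-37054007, plus strand: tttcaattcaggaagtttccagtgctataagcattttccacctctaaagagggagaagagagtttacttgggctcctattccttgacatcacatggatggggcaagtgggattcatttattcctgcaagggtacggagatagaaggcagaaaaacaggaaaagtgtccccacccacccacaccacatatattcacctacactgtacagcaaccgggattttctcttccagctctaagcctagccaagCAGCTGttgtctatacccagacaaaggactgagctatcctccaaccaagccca
Klf2, chr8:72318812-72319111, plus strand: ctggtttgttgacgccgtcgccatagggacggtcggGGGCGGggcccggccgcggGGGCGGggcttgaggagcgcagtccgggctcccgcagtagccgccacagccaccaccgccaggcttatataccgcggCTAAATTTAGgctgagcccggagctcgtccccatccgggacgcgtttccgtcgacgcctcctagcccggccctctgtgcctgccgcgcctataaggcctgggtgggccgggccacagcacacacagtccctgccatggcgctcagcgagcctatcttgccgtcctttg
Ddit4, chr10:59951721-59952020, minus strand: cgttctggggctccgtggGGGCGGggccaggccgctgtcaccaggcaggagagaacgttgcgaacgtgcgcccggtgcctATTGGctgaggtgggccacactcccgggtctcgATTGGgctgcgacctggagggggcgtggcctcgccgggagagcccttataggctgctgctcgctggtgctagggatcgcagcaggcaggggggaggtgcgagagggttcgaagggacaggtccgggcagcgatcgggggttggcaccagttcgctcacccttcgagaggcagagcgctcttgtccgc
Itga5, chr15:103366742-103367041, minus strand: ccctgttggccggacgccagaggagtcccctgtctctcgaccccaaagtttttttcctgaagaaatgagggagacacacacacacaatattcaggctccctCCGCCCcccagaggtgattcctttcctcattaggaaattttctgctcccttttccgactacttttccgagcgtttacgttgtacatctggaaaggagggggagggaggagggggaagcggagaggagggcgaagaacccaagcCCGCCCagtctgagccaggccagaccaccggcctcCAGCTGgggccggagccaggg
The Gm34538 promoter, of a noncoding gene, lies within the region in an intron of Pknox2 and holds 1 CAGCTG starting 3 bases before the gene start. Of all 32851 promoters of this length, 16.3% hold a CAGCTG. The Klf2 promoter, 5164 bp from its region, holds 2 GC boxes at -214 and -195 and 1 MEF2 motif at -118. A GC box stands in 35.7% of all promoters and a MEF2 motif in 0.557%. The Ddit4 promoter, 3624 bp from its region, holds 2 inverted CCAAT boxes at -170 and -137, present in 37.4% of promoters, and 1 GC box at -232. The Itga5 promoter, 615 bp from its region, holds 2 inverted GC boxes at -149 and -6 and 1 CAGCTG at 30 bases after the start. Also searched on both strands, TATAAA (13.6% of all promoters), TGANTCA (7.81%) and TGACGTCA (1.79%) were not found in these 4 windows. The G and C content was 46.7% for Gm34538, 69.3% for Klf2, 69.0% for Ddit4 and 58.7% for Itga5, beside a median of 52.7% over all promoters. A match describes the letters and is not a measured binding site.

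Accessibility rose at 67 regions, 0.0459% of those tested, and fell at 83, 0.0568% of those tested. The changes were of similar size in both directions: in the authors' deposited table the median log2 fold change was 1.14 over the regions that rose (quartiles 1.05 and 1.33) and -1.06 over those that fell (-1.22 and -0.94). As folds these medians are 2.2 higher and 2.09 lower, and 109 of the 150 regions, 54 higher and 55 lower, changed at least 2-fold. The median approximate SE was 0.197 for regions that rose and 0.189 for those that fell, and every change was more than 5 of these SEs from 0, as the p threshold fixes. Regions that rose were narrower and less covered: the median width was 606 bp against 735 bp for regions that fell, and the median of the mean log2 CPM (reads scaled to a common library size) in the authors' deposited table was 2.69 against 3.15. Larger changes sat at less covered regions, with a Spearman's rank correlation of -0.66 between the size of the log2 fold change and log2 CPM. This was taken over the 150 regions, which share their libraries and a common p threshold.

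**Figure D1:**
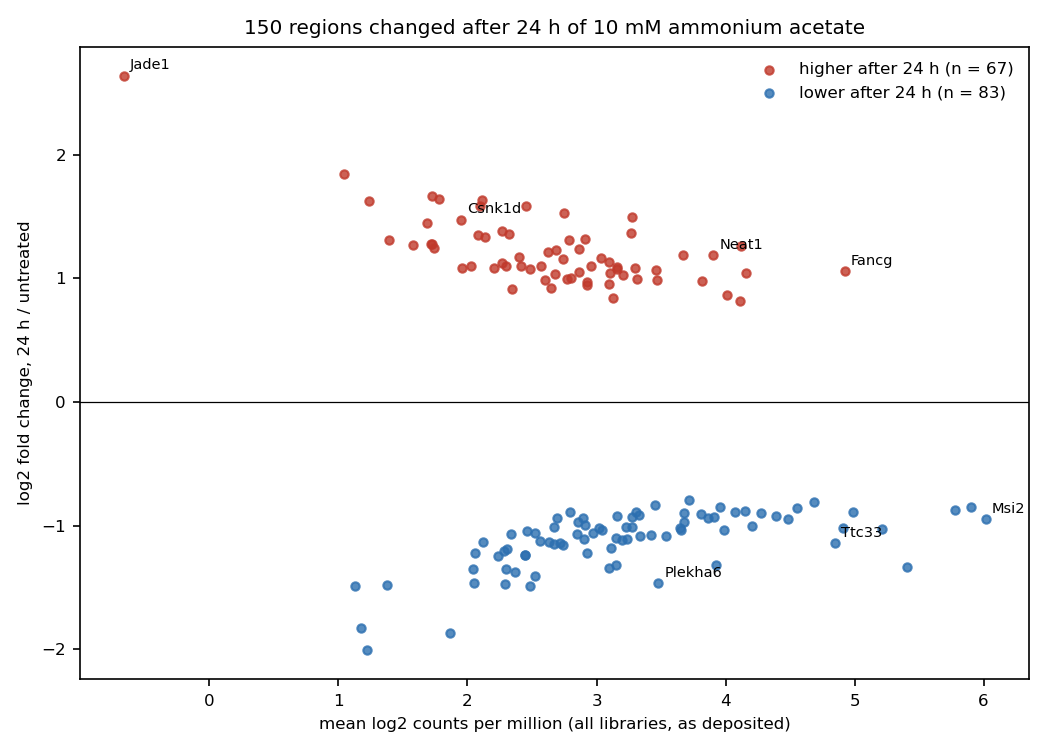
Log2 fold change, 24 h over untreated, against mean log2 CPM for the 150 regions, as deposited, with 1 point per region. The 67 regions that rose (red) and the 83 that fell (blue) have values of 0.81 or above and of -0.79 or below, and the region in Jade1 stands apart at 2.64 with a log2 CPM of -0.665.

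Many regions stood close to the threshold: 54 of the 150 had an adjusted p of 0.04 or more, and 11 had one below 0.01, in the authors' deposited table. Just inside it were regions in Pip4k2a, Rragc and Ltbp1 (adjusted p = 0.0499 each by edgeR in the authors' deposited table). Regions just outside are not in the table. All of the chromosomes other than Y held a region, from 1 on chromosome 13 and 1 on X to 13 on chromosome 15. Chromosome 9 had 2 regions that rose and 9 that fell, and chromosome 4 had 7 that rose and 4 that fell.

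The table's own annotation named 73 genes at 70 regions, of which 39 genes lay at regions that rose and 34 at regions that fell. All 73 matched a RefSeq entry and 68 were protein-coding, 0.311% of the 21887 protein-coding genes (34 at regions that rose, 0.155%, and 34 at regions that fell, 0.155%). The remaining 80 regions, 31 that rose and 49 that fell, carried no gene name. A second assignment, by a gene body within 5 kb in RefSeq, gave 75 protein-coding genes (0.343%) and added 10: Spata13, Ddit4, Klf2, Slc16a3, Wnt10b, Pigo, Emc4, St6galnac2, Slc25a20 and Lyve1. The resulting 83 genes are counted below by known role, a grouping made after their names were seen, and some are counted but not named. Of the genes named by the table, Ank3 and Commd10 lie outside 5 kb of a region by RefSeq (97765 and 142245 bp away) and are kept by the table's annotation.

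**Figure D2:**
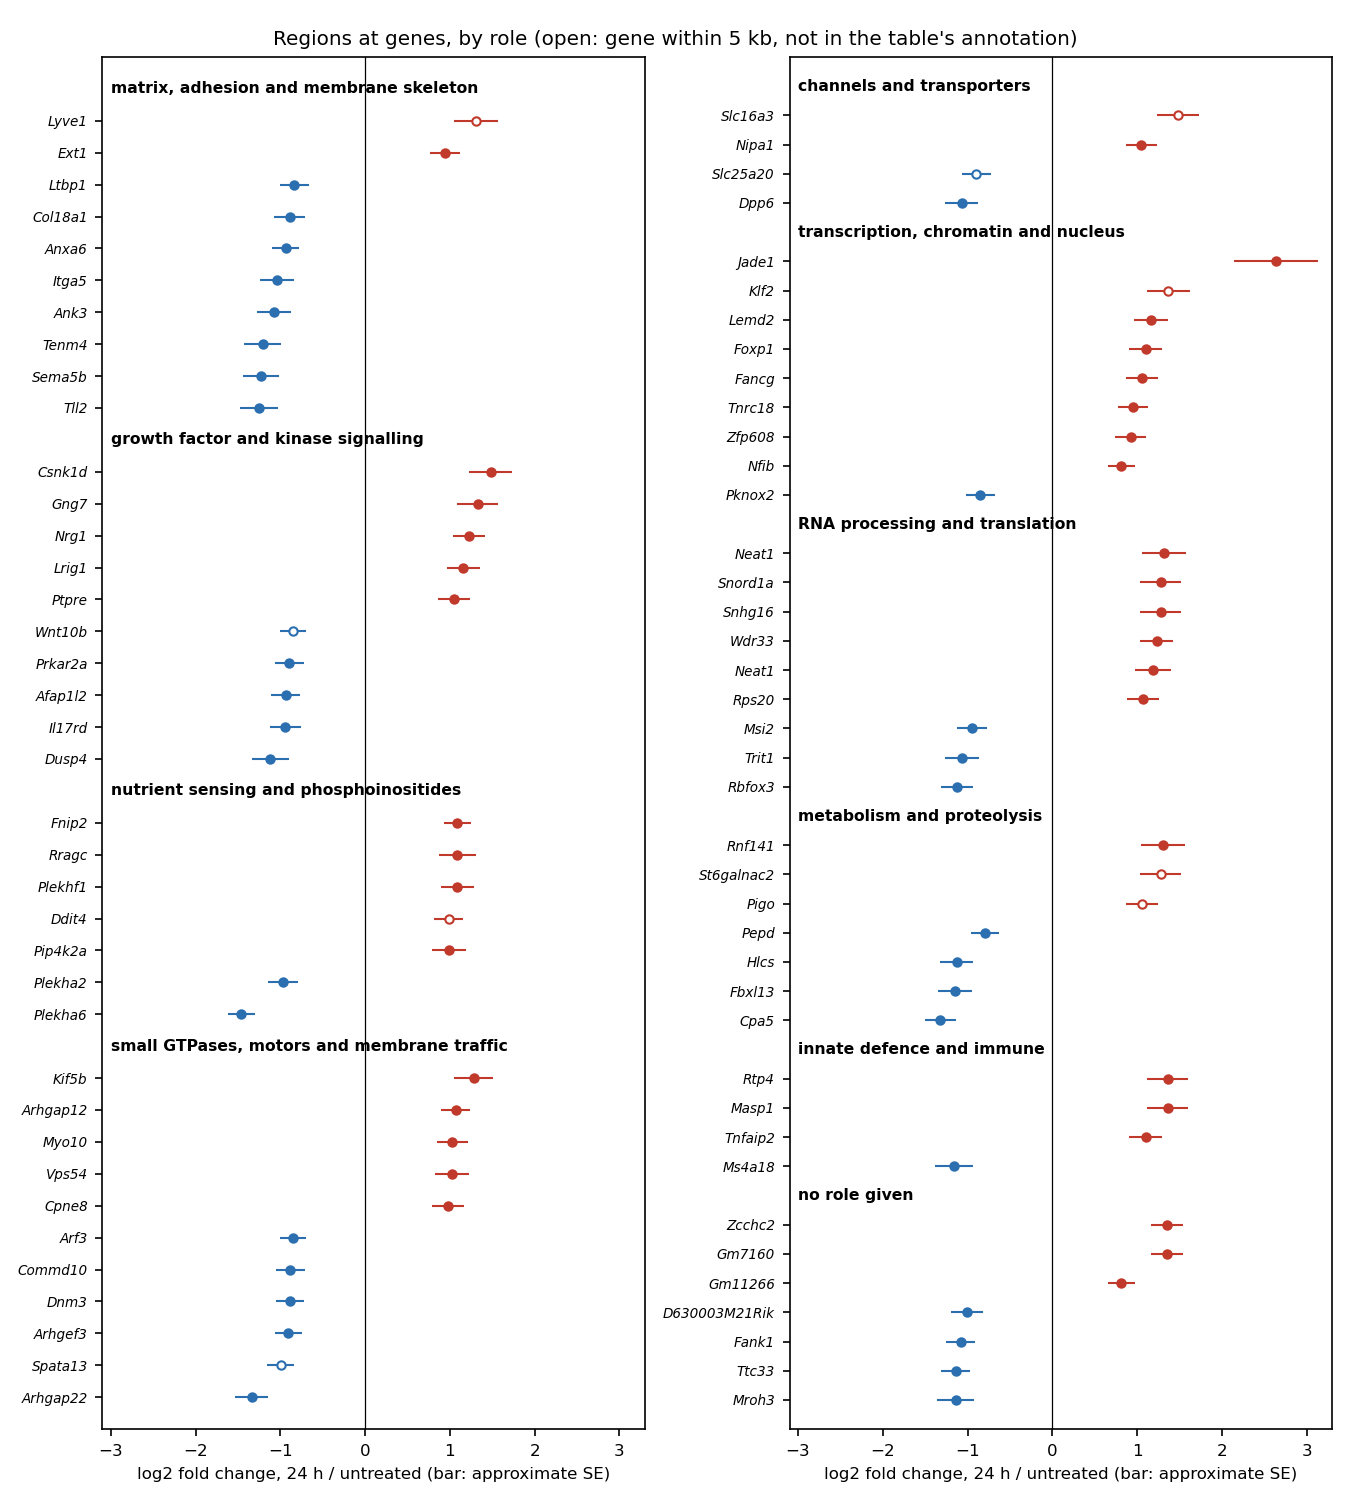
Log2 fold change, 24 h over untreated, with its approximate SE (bar) at the region of each gene named in the text apart from Emc4, grouped by role, where open points are genes added by the 5 kb assignment. Of the 8 genes of transcription, chromatin and the nucleus that the table names, 7 lay at regions that rose. Of the 10 genes of matrix, adhesion and the membrane skeleton, 8 lay at regions that fell. Over all 73 named genes the counts were 39 at regions that rose and 34 at regions that fell, and the roles were assigned after the names were seen.

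Genes of the matrix, of adhesion and of the membrane skeleton lay mostly at regions that fell, 8 of 10, beside 34 of all 73 named genes. Ext1, which builds heparan sulfate, was among those at regions that rose, and its intronic region had a log2 fold change of 0.95 ± 0.18 in the authors' deposited table (approximate SE, adjusted p = 0.0399 by edgeR). The receptor gene Itga5 encodes the integrin subunit that binds fibronectin, to which myoblasts adhere. Its region (chromosome 15, 103365505 to 103366127), in the first intron and touching a CpG island 0.975 kb from the gene start, fell by 1.04 on the log2 scale (SE 0.20, adjusted p = 0.0444 by edgeR) in the authors' deposited table. This is the region beside the Itga5 promoter printed above.

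Among genes of secreted matrix, an intron of Col18a1, a basement membrane collagen, had -0.89 ± 0.18 and an intron of Ltbp1, which stores latent TGF-beta in the matrix, had -0.84 ± 0.17 in the authors' deposited table. Tll2 encodes a protease of the family that frees myostatin from its propeptide, and its intronic region had -1.25 ± 0.22 in the authors' deposited table, where the edgeR adjusted p was 0.0292. At the membrane, Anxa6 encodes an annexin of the cap that seals torn sarcolemma, and a region 1.57 kb from its start had -0.94 ± 0.16 in the authors' deposited table. Ank3 encodes ankyrin-G, which helps to keep dystrophin at costameres, and the region that the table assigns to it had -1.07 ± 0.20 in the authors' deposited table, although it lies 97765 bp outside the RefSeq gene. The guidance and contact genes Sema5b, a semaphorin, and Tenm4, a teneurin, had -1.23 ± 0.21 and -1.21 ± 0.22 in the authors' deposited table. The Tenm4 region is annotated as promoter and 5′ UTR, yet lies 351 kb into a gene of 740 kb, at an internal start. Lyve1, a hyaluronan receptor of lymphatic vessels, is 1814 bp from a region that rose (1.31 ± 0.26 in the authors' deposited table), which the table assigns to Rnf141.

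Genes of growth factor and kinase signalling were divided, 5 at regions that rose and 4 at regions that fell. Nrg1 encodes neuregulin, the ErbB ligand that acts at neuromuscular junctions and muscle spindles. A region 557 kb into this very long gene (chromosome 8, 32334376 to 32335026) had a log2 fold change of 1.23 ± 0.19 in the authors' deposited table (adjusted p = 0.0149 by edgeR). Lrig1 encodes a membrane protein that promotes the degradation of ErbB receptors, and its intronic region (chromosome 6, 94618550 to 94619305) had 1.16 ± 0.19 (adjusted p = 0.0204 by edgeR) in the authors' deposited table. Both the ligand and the inhibitor thus lay at regions that rose. The remaining 3 that rose were Csnk1d, casein kinase 1 delta, a kinase of the circadian clock (1.48 ± 0.25), Gng7, a G protein gamma subunit (1.33 ± 0.24), and Ptpre, a receptor-type tyrosine phosphatase (1.05 ± 0.19, all in the authors' deposited table).

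The genes at regions that fell have mixed roles. Dusp4 encodes a nuclear phosphatase that inactivates MAP kinases, and a region 2.23 kb into it, touching a CpG island (chromosome 8, 34809605 to 34810065), had -1.12 ± 0.22 in the authors' deposited table (adjusted p = 0.0444 by edgeR). The Dusp4 and Itga5 regions were the 2 of 150 that touched a CpG island. Il17rd encodes an inhibitor of FGF signalling to ERK, and a region at its 3′ end had -0.94 ± 0.18 in the authors' deposited table. Prkar2a encodes a regulatory subunit of protein kinase A, and a region 1973 bp upstream of the RefSeq gene had -0.90 ± 0.17 in the authors' deposited table. The table's annotation also places that region in a 5′ UTR, exon and intron of Prkar2a. Afap1l2 encodes an adaptor between Src and PI3 kinase, and its intronic region had -0.94 ± 0.17 in the authors' deposited table. Wnt10b, a Wnt ligand that keeps mouse myoblasts from turning into adipocytes, is 1801 bp from a region at -0.85 ± 0.15 in the authors' deposited table, which assigns the region to Arf3.

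Genes of nutrient sensing and phosphoinositides were 4 higher and 2 lower. Rragc encodes a Rag GTPase, which brings mTORC1 to the lysosome when amino acids are present, and Fnip2 encodes a partner of folliculin, the activating protein for RagC and RagD. An intron of Fnip2 (chromosome 3, 79531678 to 79532518) had a log2 fold change of 1.09 ± 0.16 in the authors' deposited table, with an edgeR adjusted p of 0.0096. An intron of Rragc (chromosome 4, 123927920 to 123928342) had the same value with a larger error, 1.09 ± 0.22 in the authors' deposited table, and only just passed (adjusted p = 0.0499 by edgeR). Ddit4 encodes REDD1, an inhibitor of mTORC1 that glucocorticoids and energy stress induce in muscle. A region 1578 bp past the 3′ end of Ddit4 (chromosome 10, 59947391 to 59948097), which the table leaves without a gene, had 0.99 ± 0.17 (adjusted p = 0.0232 by edgeR) in the authors' deposited table. The region does not reach the Ddit4 promoter printed above.

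The phosphoinositide genes encode proteins that bind or phosphorylate these membrane lipids. The smallest adjusted p of all 150 regions belonged to an intron of Plekha6, a pleckstrin homology domain protein of cell junctions. That region (chromosome 1, 133217458 to 133218192) had -1.46 ± 0.16 and a mean log2 CPM of 3.48 in the authors' deposited table, where the edgeR adjusted p was 0.00113. Plekha2, which binds the product of PI3 kinase and lipid phosphatases, had -0.97 ± 0.18, while Plekhf1, an endosomal protein, and the lipid kinase gene Pip4k2a had 1.09 ± 0.20 and 0.99 ± 0.20, in the authors' deposited table.

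Regulators of small GTPases, motors and membrane traffic were evenly divided, 5 higher and 5 lower. Several of these GTPases remodel actin when myoblasts fuse and when costameres form. Arhgap22, a Rac GTPase-activating protein, had a region at its promoter (chromosome 14, 33212487 to 33213144) with -1.34 ± 0.19 and an edgeR adjusted p of 0.0096 in the authors' deposited table. It was joined among regions that fell by Arhgef3, a GTPase exchange factor that also inhibits mTORC2 (-0.91 ± 0.16), and Spata13, a Rac and Cdc42 exchange factor added by the 5 kb assignment (-0.996 ± 0.16), both in the authors' deposited table. Arhgap12, another GTPase-activating protein, went the other way, 1.07 ± 0.17 in the authors' deposited table, at a region 3.62 kb into the gene.

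The motor genes lay at regions that rose. Kif5b encodes the kinesin heavy chain that spaces nuclei along myotubes, and its region had 1.28 ± 0.23 in the authors' deposited table. Myo10 encodes a filopodial myosin needed for myoblast fusion in mice, and a region 187 kb into its 191 kb had 1.03 ± 0.18 in the authors' deposited table. Traffic genes that rose were Vps54, a tethering subunit at the Golgi that is mutated in the wobbler mouse (1.02 ± 0.20), and Cpne8, a calcium-dependent membrane-binding copine (0.98 ± 0.19), with Emc4, of the complex that inserts membrane proteins into the endoplasmic reticulum, 2277 bp from a region that rose (values from the authors' deposited table). Those that fell in the authors' deposited table were the Golgi GTPase gene Arf3 (-0.85 ± 0.15), the dynamin gene Dnm3 (-0.89 ± 0.17) and Commd10, an endosomal sorting gene (-0.88 ± 0.17). The Commd10 region lies 142245 bp beyond the RefSeq gene.

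Channels and transporters gave 2 of each direction. Nipa1, a magnesium transporter gene mutated in a hereditary spastic paraplegia, had 1.05 ± 0.18 at an intronic region in the authors' deposited table. Among those that fell, Dpp6, an auxiliary subunit gene of Kv4 channels, had -1.07 ± 0.19 in the authors' deposited table. A pair of fuel carriers came from the 5 kb assignment. Slc16a3, the lactate exporter MCT4 of glycolytic fibres, is 3672 bp from the Csnk1d region that rose, and Slc25a20, which carries acylcarnitines into mitochondria, is 4844 bp from the Prkar2a region that fell.

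Of the 8 genes of transcription, chromatin and the nucleus, 7 lay at regions that rose, beside 39 of all 73 named genes. Foxp1, a forkhead repressor that causes muscle wasting when overexpressed in mice, had 1.10 ± 0.20 in an intron in the authors' deposited table. Nfib, a nuclear factor I gene, had 0.81 ± 0.16 at a region 3840 bp upstream, and Zfp608 and Tnrc18, which encode a zinc finger protein and a large chromatin protein, had 0.92 ± 0.18 and 0.95 ± 0.18, in the authors' deposited table. Lemd2, an inner nuclear membrane gene, had 1.16 ± 0.20, and Fancg, a DNA repair gene of the Fanconi pathway, had 1.06 ± 0.19 at a region 1031 bp upstream, in the authors' deposited table. The largest change of all, 2.64 ± 0.50 or 6.23-fold in the authors' deposited table, was in an exon of Jade1, which encodes a subunit of a histone acetyltransferase complex (chromosome 3, 41613752 to 41613952). At 201 bp it is the narrowest region, and with a log2 CPM of -0.665 it is the 1 region below a log2 CPM of 1, so its fold rests on few reads (adjusted p = 0.0421 by edgeR, in the authors' deposited table).

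Pknox2, a homeodomain gene, was the 1 member that fell. Its intronic region (chromosome 9, 37052993 to 37055138) is the widest of the 150 at 2146 bp, holds the Gm34538 promoter printed above, and had -0.85 ± 0.17 with a log2 CPM of 5.90 in the authors' deposited table. Klf2, a zinc finger factor that acts below the kinase ERK5 in myoblast fusion, was added by the 5 kb assignment. A region 2621 bp past its 3′ end (chromosome 8, 72324275 to 72325110) had 1.37 ± 0.25 in the authors' deposited table (adjusted p = 0.0391 by edgeR).

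Genes of RNA processing and translation were 6 higher and 3 lower. Neat1, the noncoding RNA that builds nuclear paraspeckles, was the 1 gene with more than 1 region by the table. Its regions, 9.73 and 16.4 kb from the start of a 20.8 kb gene, had 1.19 ± 0.21 and 1.32 ± 0.26 in the authors' deposited table (adjusted p = 0.0312 and 0.0469 by edgeR). Wdr33, a subunit of the complex that recognises the polyadenylation signal, had 1.23 ± 0.19 in an intron in the authors' deposited table. The ribosomal protein gene Rps20 had 1.07 ± 0.19 at its 3′ end, and Snhg16 and Snord1a, a noncoding host gene and the small nucleolar RNA inside it, share a region at 1.28 ± 0.24, in the authors' deposited table. St6galnac2, a sialyltransferase gene, is 1798 bp from that same region.

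The genes that fell encode RNA-binding and tRNA-modifying proteins. Rbfox3 belongs to a family of splicing factors that steer muscle exons, although this member is best known in neurons, and its intronic region had -1.12 ± 0.19 in the authors' deposited table. Msi2, a Musashi RNA-binding protein gene, held the most covered region of the 150 (log2 CPM 6.02), with -0.95 ± 0.18 in the authors' deposited table. Trit1, which modifies transfer RNAs, had -1.06 ± 0.20 in the authors' deposited table.

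Metabolism and proteolysis gave 2 higher and 4 lower. Cpa5, a carboxypeptidase gene, had the second smallest adjusted p among named genes that fell, at an intron (chromosome 6, 30628039 to 30628596) with -1.32 ± 0.18 and an edgeR adjusted p of 0.0077 in the authors' deposited table. Hlcs, which attaches biotin to carboxylases, had -1.13 ± 0.19, Fbxl13, an F-box gene of ubiquitin ligases, -1.15 ± 0.20, and Pepd, a dipeptidase that frees proline from collagen fragments, -0.79 ± 0.16, in the authors' deposited table. The Pepd value was the smallest change in size among the 150 regions. The RING finger gene Rnf141, 3962 bp from its region, had 1.31 ± 0.26 in the authors' deposited table. Pigo, of the pathway that makes glycolipid anchors, is 4995 bp from the Fancg region that rose.

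Genes of innate defence gave 3 higher and 1 lower. Rtp4, an interferon-induced gene, and Masp1, a protease of the lectin pathway of complement, share a region at the Rtp4 promoter and in a Masp1 intron, with 1.36 ± 0.24 in the authors' deposited table (adjusted p = 0.0298 by edgeR). Tnfaip2, induced by TNF through NF-kB, had 1.10 ± 0.20 in the authors' deposited table. Ms4a18, of a family of membrane proteins, had -1.16 ± 0.22 at a region 0.746 kb into the gene in the authors' deposited table. Another 7 genes are given without a role: Zcchc2 and Gm7160, which share a region, and Gm11266 rose, and Ttc33, Fank1, Mroh3 and D630003M21Rik fell. The region shared by Zcchc2 and Gm7160 (chromosome 1, 105988150 to 105988411) had 1.35 ± 0.19 and an edgeR adjusted p of 0.0096, while introns of Ttc33 and Fank1 had -1.14 ± 0.17 and -1.08 ± 0.17, in the authors' deposited table. Gm11266 shares the Nfib region, and Mroh3 and D630003M21Rik had -1.14 ± 0.22 and -1.01 ± 0.19 in the authors' deposited table.

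Regions also stood in clusters. Taking regions within 150 kb of each other as a locus, the 150 formed 139 loci, and 7 of these held 2 or more regions, 18 in all. Within each of the 7 the regions changed in 1 direction, 2 loci higher and 5 lower. At Neat1 (chromosome 19, 5822309 to 5835940) 3 regions within 13.6 kb rose, by 1.5, 1.32 and 1.19 on the log2 scale in the authors' deposited table, and the largest lay 2034 bp past the gene's 3′ end (adjusted p = 0.0077 by edgeR). The other locus that rose joins Arhgap12 and Kif5b, 80.8 kb on chromosome 18. At Col18a1 (chromosome 10, 77123900 to 77230414) 4 regions within 107 kb fell, with -0.89 in an intron and -0.95, -1.33 and -0.87 between Col18a1 and Pofut2, in the authors' deposited table.

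The deepest falls in clusters lay far from protein-coding genes. On chromosome 16, between Runx1 and Setd4, a pair of regions 142 kb from end to end had -2.01 ± 0.30 and -1.11 ± 0.20 in the authors' deposited table, and -2.01 is the largest fall of all 83. That region lies 296670 bp from Runx1, a transcription factor that denervated muscle induces, and has a log2 CPM of 1.22. RefSeq places a long noncoding RNA gene within 5 kb of each region of this pair, Gm30474 at the first and Gm30588 at the second. On chromosome 1, 3 regions over 141 kb beyond Camk1g, a calmodulin-dependent kinase gene, had -0.81, -1.87 and -1.09 in the authors' deposited table. They lie 11307, 150453 and 151703 bp from Camk1g. Pairs on chromosome 2, nearest to 1700021F07Rik, and on chromosome 9, nearest to Snx19, had -1.02 and -0.91, and -0.93 and -0.89, in the authors' deposited table.

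**Figure D3:**
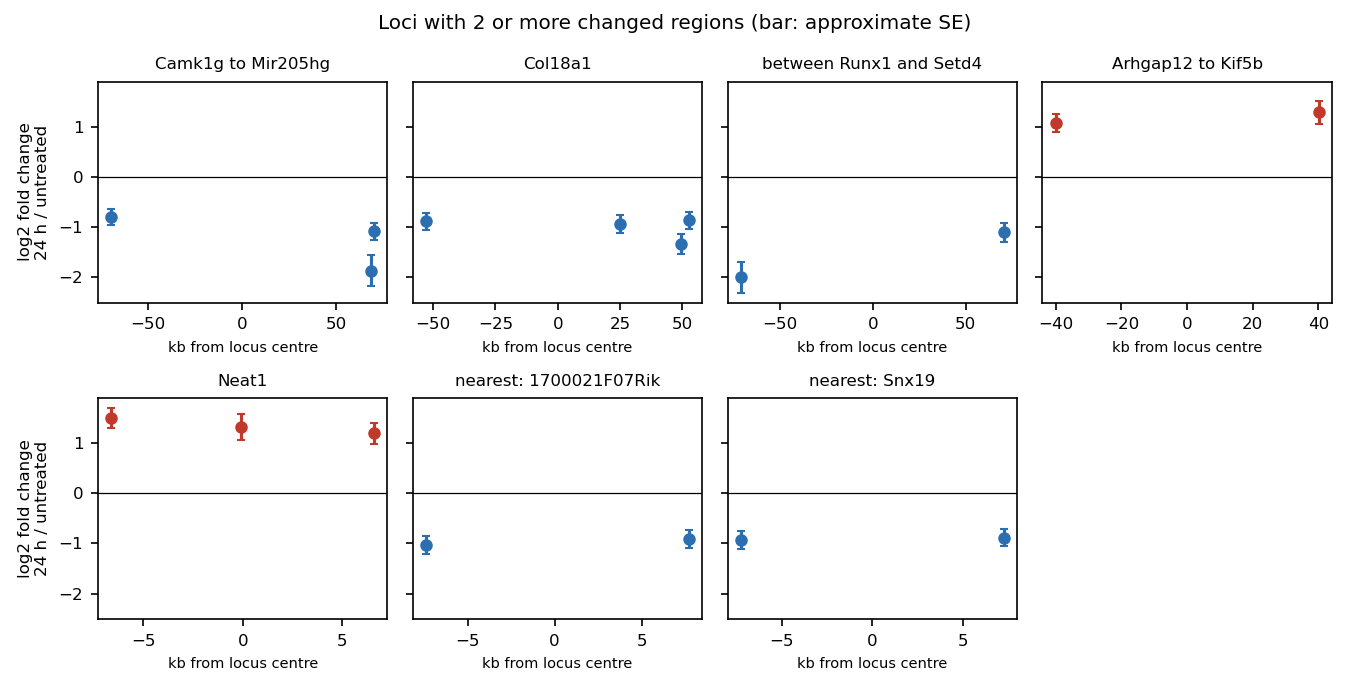
Log2 fold change, 24 h over untreated, with its approximate SE (bar), against distance from the centre of the locus in kb, for the 7 loci with 2 or more regions. All 5 regions of the Neat1 and Arhgap12 to Kif5b loci lie above 0 and all 13 of the other 5 loci lie below.

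Beyond named genes, 80 regions are left without a gene by the table, of which 3 lie within 5 kb of a protein-coding gene and 21 lie more than 100 kb from any. Some of the 80 are still annotated to a promoter, exon or intron of a transcript that has no gene name. RefSeq places a long noncoding RNA gene within 5 kb of 7 of the 31 that rose and 17 of the 49 that fell. The matching share for the full tested set is not known here, so nothing is read from these counts. Distances to the nearest protein-coding gene over all regions had a median of 2621 bp for those that rose and 11310 bp for those that fell, but 10430 and 17190 bp at an adjusted p below 0.02. Of these nearest genes several have roles in muscle, and a nearest gene is not a shown target. Regions that fell lay 5560 bp from Lif, a cytokine that promotes myoblast growth (-1.35 ± 0.26), and 5774 bp from Chkb, a choline kinase whose loss causes muscular dystrophy in mice (-1.22 ± 0.21), in the authors' deposited table. Others that fell lay 8590 bp from Spp1, osteopontin (-1.02 ± 0.19), and 9747 bp from Dll1, a Notch ligand that keeps muscle progenitors undifferentiated (-0.90 ± 0.17), in the authors' deposited table.

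The TGF-beta receptor gene Tgfbr2 was the nearest to a region 139394 bp away with -1.41 ± 0.20 and an edgeR adjusted p of 0.0096 in the authors' deposited table. Regions nearest to Lrrc49 and Ppp2r3a, 28150 and 186423 bp away, fell by 1.35 and 1.31 on the log2 scale in the authors' deposited table. Among regions that rose, the smallest adjusted p, 0.00199 by edgeR in the authors' deposited table, belonged to a region on chromosome 6 (51163130 to 51163731) with 1.53 ± 0.18, 59226 bp from the predicted gene Gm38821. Next to Baalc, Cwc15 and Flvcr1, a heme exporter gene, regions had 1.58 ± 0.23, 1.26 ± 0.18 and 1.59 ± 0.23, with an edgeR adjusted p of 0.0096 each in the authors' deposited table, at distances of 25100, 10434 and 7240 bp. Amotl2, which binds and restrains YAP, lay 26107 bp from a region at 1.31 ± 0.20, and Sos1, the Ras exchange factor below growth factor receptors, 11498 bp from a region at 1.17 ± 0.20, in the authors' deposited table. Lgals3, a galectin gene, and Scd2, a fatty acid desaturase gene, lay 11735 and 9924 bp from regions at 1.63 ± 0.26 and 1.10 ± 0.19 in the authors' deposited table. The region nearest to Scd2 is annotated to an exon and intron without a gene name.

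By annotation, most regions lay in introns or between genes in both directions. The classes of all the regions tested are not known here. The shares below therefore describe the changed regions and cannot be set against that background. Introns held 44.8% of regions that rose (30 of 67, 95% Clopper-Pearson interval 32.6 to 57.4) and 41.0% of regions that fell (34 of 83, 30.3 to 52.3). Intergenic sequence held 43.3% of those that rose (31.2 to 56.0) and 50.6% of those that fell (39.4 to 61.8), an order that reversed to 69.2% and 46.2% at an adjusted p below 0.02, where 13 regions remain in each direction. Promoters held 8 that rose, 11.9% (5.3 to 22.2), and 4 that fell, 4.82% (1.33 to 11.9). Exons held 22.4% (13.1 to 34.2) against 7.23% (2.7 to 15.1), and 3′ UTRs 7.46% (2.47 to 16.6) against 1.2% (0.0305 to 6.53). The exon and promoter differences were lost at an adjusted p below 0.02, where each class held 7.69% of regions in both directions. Several of these promoter regions are internal or belong to unnamed transcripts, as at Csnk1d, Wdr33, Kif5b and Vps54, which lie 28.4, 16.5, 28.8 and 75.3 kb from the RefSeq start of the named gene. CpG islands held 0 regions that rose, which allows a share of up to 5.36% by the same interval, and 2 that fell, while 85.1% and 92.8% lay in sequence far from any CpG island. The intervals cover counting error only, since regions share libraries and are not replicates.

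**Figure D4:**
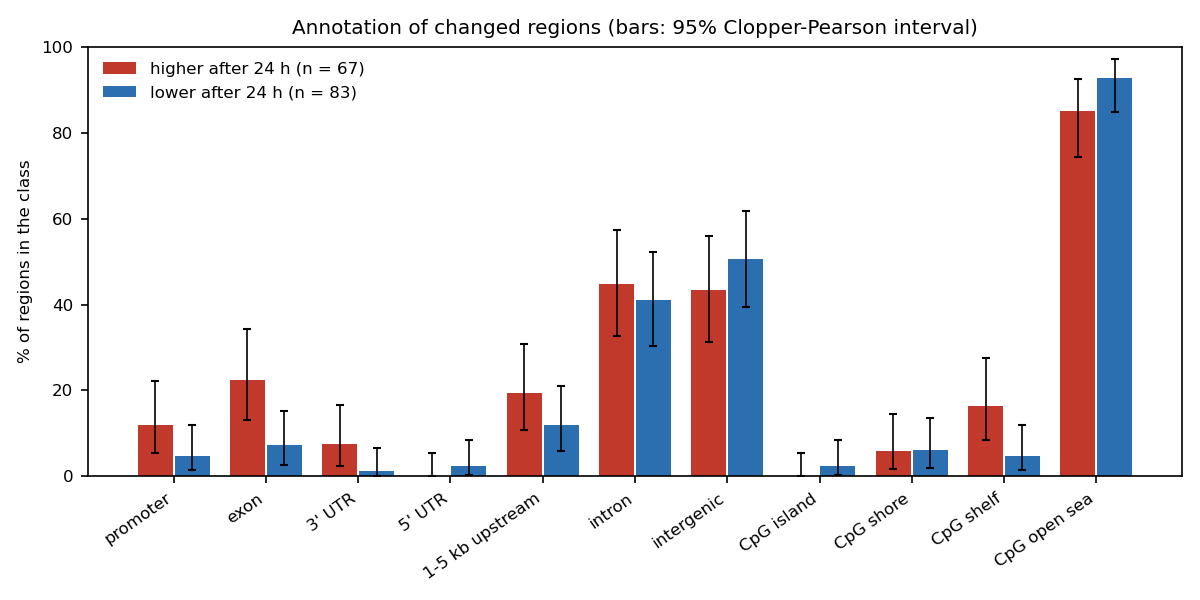
Percent of the 67 regions that rose (red) and of the 83 that fell (blue) in each annotation class, with 95% Clopper-Pearson intervals as bars; a region counts in every class it overlaps. The exon bars stand at 22.4% and 7.23%, and the intron and intergenic bars are the tallest of the gene classes in both directions.

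Inside genes the regions were spread along the body. For the 32 pairs of a region that rose and the gene around it the median position was 50.3% of the way from the RefSeq start (quartiles 16.5 and 78.5), and for the 27 pairs that fell it was 55.9% (36.8 and 80.5). Within 5 kb of the start were 7 that rose and 4 that fell. The genes were long, with a median length of 75.8 kb for the pairs that rose and 123 kb for those that fell. Over all protein-coding genes the median was 17.2 kb. That set differs, since the pairs that rose also include the noncoding genes Neat1, Gm7160, Gm11266 and Snhg16. A longer gene has more room for a region.

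Of 486 genes on 19 lists of muscle and stress genes and cell type markers, 11 (2.26%) were named by the table at a region, beside 0.311% of all protein-coding genes, and 13 with the 5 kb assignment. Because the lists were written with the names of these genes known, neither this share nor the counts per list are evidence of enrichment. The list of myogenic regulators had 1 of 33, Rbfox3, a splicing factor gene best known in neurons. Genes of mTORC1 and the lysosome had 2 of 38 (Rragc and Fnip2), and neuregulin and ErbB genes 2 of 29 (Nrg1 and Lrig1). Regulators of small GTPases had 3 of 31 (Arhgap12, Arhgap22 and Arhgef3). Immediate early genes had 1 of 33 (Dusp4), NF-kB genes 1 of 26 (Tnfaip2), and TGF-beta and YAP genes 1 of 31 (Ltbp1). The 5 kb assignment added Ddit4 to the mTORC1 list and to the integrated stress response list of 24, and Klf2 to the immediate early list.

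No region lay at any of the 46 sarcomere genes, the 33 genes of ammonia and amino acid metabolism, the 32 of proteolysis and autophagy, the 26 of hypoxia and glycolysis, the 28 of mitochondria, the 28 of ion transport and calcium or the 24 of p53 and apoptosis. Markers of myotubes, of myoblasts and reserve cells, of fibroblasts, and of adipocytes and smooth muscle also had 0 members at a region (0 of 48 over 4 lists of 12). At the share of 0.311% over all protein-coding genes, lists of this length would mostly have 0 members, so nothing is read from these zeros. Since the table holds changed regions alone, it cannot show whether the accessibility of these marker genes fits the labelled cell type, and the purity of the cultures was not tested. A mix of cells that changes and a change within each cell cannot be told apart in these bulk libraries.

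The same regions also appear in part in the authors' tables for 3 h against untreated and for 24 h set against 3 h, which list 588 regions (0.403% of those tested) and 1256 regions (0.86%) past a raw p of 0.005 and a 1.5-fold change. These comparisons share libraries with the 24 h comparison, so their values are set side by side and nothing is read from how they match. The Klf2 region had 1.37 at 24 h over untreated and 2.02 at 3 h over untreated (adjusted p = 0.0391 and 0.00976 by edgeR) in the authors' deposited tables. Plekha6 had -1.46 at 24 h over untreated, -0.59 at 3 h over untreated and -0.87 at 24 h over 3 h, and of these only the value at 24 h over untreated passed an edgeR adjusted p of 0.05 in the authors' deposited tables. For Jade1 the values were 2.64 at 24 h over untreated and 1.90 at 3 h over untreated, and for the Neat1 region 9.73 kb from the start 1.19 and 0.74, in the authors' deposited tables (adjusted p at 3 h 0.939 and 0.996 by edgeR).

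Other members have a value in the deposited table of 24 h over 3 h. In most of them it was smaller in size than at 24 h over untreated, the comparison on which the regions were chosen. Fnip2 had 1.09 at 24 h over untreated and 0.60 at 24 h over 3 h, Wdr33 1.23 and 0.71, Foxp1 1.10 and 0.63, and Rbfox3 -1.12 and -0.65, in the authors' deposited tables. The next 6 are among the members with the smallest adjusted p at 24 h over 3 h, a choice that favours large values there. Nipa1 had 1.05 at 24 h over untreated and 1.08 at 24 h over 3 h, Cpne8 0.98 and 1.14, and Ext1 0.95 and 0.95, in the authors' deposited tables. The Col18a1 intron had -0.89 and -1.07, Plekha2 -0.97 and -0.97, and Kif5b 1.28 and 1.22, for the same comparisons in the authors' deposited tables. In the table of 24 h over 3 h none of these 6 passed, with edgeR adjusted p from 0.195 to 0.222, and neither did the 4 before them. Rragc, Ltbp1, Rps20, Pknox2 and Msi2 are in neither of the other tables, which says only that they did not pass those tables' limits.

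**Figure D5:**
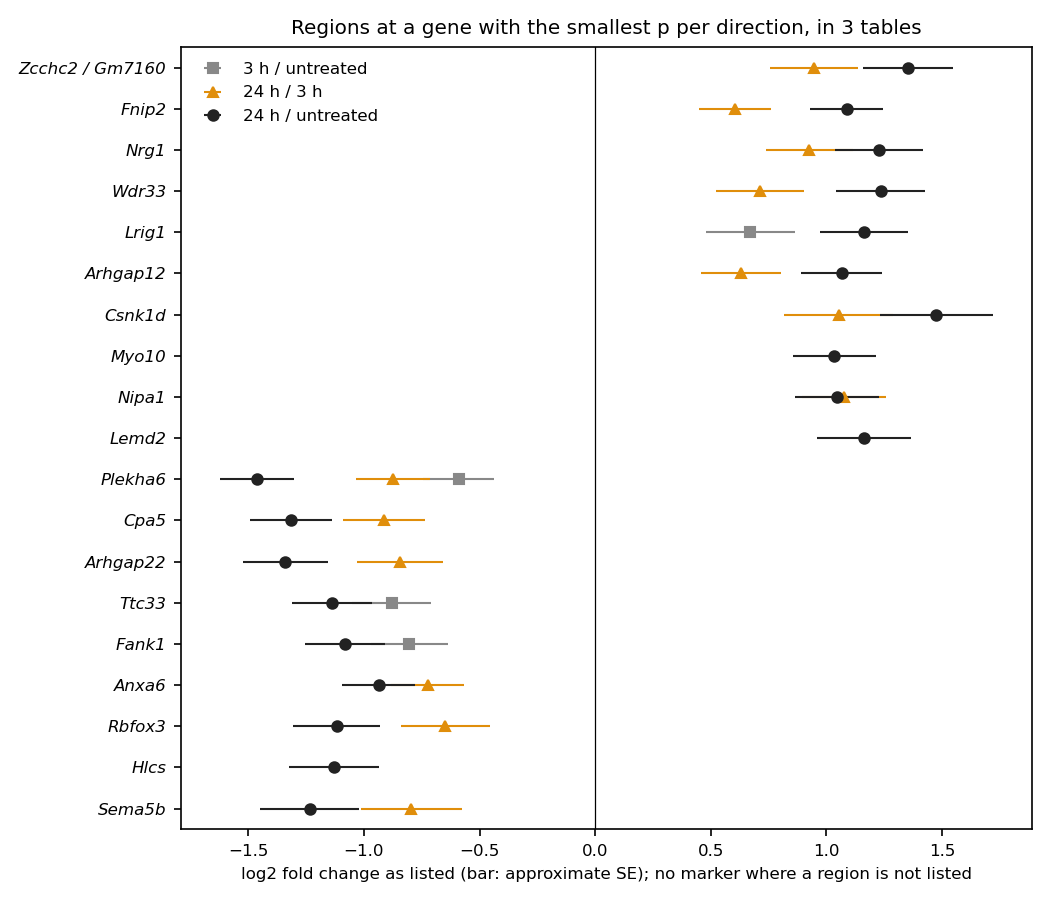
Log2 fold change with its approximate SE (bar) in up to 3 tables for the regions at a gene named in the text that are among the 10 with the smallest p in each direction at 24 h over untreated (black circles), with 24 h over 3 h as orange triangles and 3 h over untreated as grey squares. A missing marker means that the region is not listed in that table, and Lrig1, Plekha6, Ttc33 and Fank1 are those with a value at 3 h over untreated.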

How the data were processed

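Per the labels' protocols, libraries were made by Omni-ATAC from frozen cell pellets. Per the submitters' processing notes, the authors used Trim Galore 0.4.5, cutadapt 1.15, Bowtie2 2.3.4.1, Picard 2.20.2, MACS2 and edgeR with mm10. A read shift for the transposase, or pooling of libraries for peak calling, is not given in the sources used. The authors deposited, per region, a log2 fold change (24 h over untreated), a mean log2 CPM, a p-value and its Benjamini-Hochberg adjusted p-value, and an F statistic (a score). Their covariates are not given.

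Lines were collapsed to 1 per region. F and p implied 21.5 denominator degrees of freedom for every region, and the adjusted p of all 150 regions fitted 146047 tests. This recovery was also checked on simulated data. Gene bodies and promoters came from RefSeq (GRCm38.p6). Distances to a nearest gene are to its body because the table of start sites is incomplete. Members, lists and roles were chosen with earlier results of these data known. The genes given with values include, for each direction, 10 regions chosen by smallest adjusted p, the 5 largest changes at a gene, genes with 2 or more regions, and list members. Some genes that meet this rule are not reported here. No region sequence was searched. Python 3.11.15, pandas 2.3.3, scipy 1.17.1 and matplotlib 3.10.9 were used.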

Additional observations from a re-analysis of the deposited data

How the results depend on the processing

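Of 66 values recomputed, 54 stayed within the limits used for a match. At an adjusted p below 0.02 the count was 26 regions, 13 higher and 13 lower, and a 2-fold limit left 55 regions that fell. At an adjusted p below 0.02, regions that rose and fell were 7.69% and 7.69% in exons, 7.69% and 7.69% in promoters, 30.8% and 38.5% in introns and 69.2% and 46.2% in intergenic sequence. The exon, promoter, intron and intergenic differences were thus lost or reversed. The median distance to a protein-coding gene was then 10430 bp for regions that rose and 17190 bp for those that fell, within the quartiles over all regions of each direction, and the median log2 fold change of those that fell was -1.31 (13 regions each). When each region had its foremost class alone, the exon share was 7.46% for regions that rose and 2.41% for regions that fell, and the intron share 23.9% for regions that rose; by construction a region then counts once. Naming the nearest protein-coding gene gave 141 genes, since it names a gene at any distance. Adding the genes within 5 kb to the role groups was chosen after seeing the data, as was the chaining of regions into loci. No paired analysis was possible because values per library are missing from the tables, and for that reason no replicate could be left out.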
